A study of Mus musculus with 6 samples.

Results

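The glycolysis, pentose phosphate and hypoxia genes described here are 42 mouse genes that were chosen by symbol, among 25067 rows of 1 table of RNA-seq values. They cover glucose uptake, each step from glucose to pyruvate and lactate, the gate to the mitochondrion, the pentose phosphate pathway, and the subunits, oxygen sensors and targets of hypoxia-inducible factor (HIF). All 42 were on 1 row each, and 39 of them passed the filter for testing, a mean normalized count of at least 10 over the 6 libraries. The libraries came from colonic organoids, which are epithelial cultures grown from colon crypts, here of C57BL/6 mice 8 weeks old. Every library carried the same genotype, with both copies of Prkci floxed (Prkci f/f), both copies of Prkcz floxed (Prkcz f/f) and the transgene Villin-CreERT2, in which 4-hydroxytamoxifen (4-OHT) activates a Cre recombinase driven by the epithelial Villin promoter and Cre removes the floxed parts of the genes for the atypical protein kinases C (aPKC). From passage on, 3 cultures received 4-OHT and 3 received the ethanol vehicle for 3 days, in a medium with B27, WNT3A, EGF, Noggin and R-spondin 1. The labels call the vehicle libraries wild type, but these carry the floxed alleles and Cre as well. No library with 4-OHT and without Cre or without floxed alleles was analysed here, so loss of aPKC, Cre activity and 4-OHT itself cannot be told apart, and nothing states whether the 3 cultures of a group came from separate mice. The p-values therefore measure the spread between these libraries only.

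Glycolysis splits glucose into pyruvate in the cytosol, and pyruvate is then reduced to lactate or passed to the mitochondrion through the pyruvate dehydrogenase complex, whose kinases (PDK) switch it off. The pentose phosphate pathway branches off at glucose 6-phosphate and gives NADPH and ribose for nucleotides. When oxygen is plentiful, prolyl hydroxylases (the Egln genes) mark the alpha subunits of HIF for degradation. When oxygen is short, HIF-alpha pairs with Arnt on the short DNA motif RCGTG and raises genes of glycolysis, angiogenesis and mitophagy. The colonic epithelium is known for a steep oxygen gradient and for HIF activity toward the lumen.

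Whole reads recovered from the deposited values came to between 15804709 and 26957612 per library, so a count of 3 reads, taken as the smallest a library can show, lies below the count of every tested member in every library, and this limit covers counting error only. Values below are normalized counts, which are reads divided by 1 size factor per library, and 3 values in a row are those of replicates 1, 2 and 3. Both floxed genes were lower with 4-OHT, with log2 fold changes of -1.70 for Prkcz (limma adjusted p = 3.2e-12) and -0.22 for Prkci (8.1e-04). Both are values of whole genes rather than of the floxed exons, so the extent of recombination was not measured. Of 8 general epithelial markers all were detected in every library, and their summed level was 20402 to 20891 CPM (reads scaled to the library total) with vehicle and 26272 to 27914 with 4-OHT. Most of these reads came from Krt8 and Krt19. Of the 8 markers 6 rose, Cdx2 fell (log2 fold change -0.26) and Cdx1 did not pass (0.087). All 8 markers of cycling cells fell, with summed levels of 1630 to 1715 CPM with vehicle and 834 to 949 with 4-OHT. Of 7 markers of absorptive colonocytes 4 rose, with summed levels of 372 to 453 CPM with vehicle and 570 to 692 with 4-OHT. Most of the reads in these sums came from Car1. Car4 and Aqp8, which also rose, had few reads, at 1, 2 and 2 and at 14, 46 and 6 with vehicle. Slc26a3, Krt20 and Ceacam20 did not pass. The part of these cell types in the results below was not tested. The 6 endothelial markers together had 8 to 24 reads in any library. Reads of Paneth, ileal, plasma cell and smooth muscle genes were most frequent in 4-OHT replicates 2 and 3. The Paneth and ileal list stood at 38.3 to 39.9 CPM there, against 10.6 to 18.0 in the other 4 libraries. The smooth muscle list had 3, 8 and 9 reads with vehicle and 11, 55 and 98 with 4-OHT. Fibroblast reads were most frequent in 4-OHT replicate 3, at 10.6 CPM. Counts are therefore also given without 4-OHT replicates 2 and 3. On the second principal component over all tested rows (14.1% of the variance), 4-OHT replicate 1 lay at -26.8 and 4-OHT replicates 2 and 3 at 10.5 and 10.9. In such bulk libraries, fewer cells of a type and less RNA per cell cannot be told apart.

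Transcripts of glycolysis and of the hypoxia response were lower in 4-OHT organoids for most of the list. Of the 39 members tested with limma-trend over 13210 rows, 26 were lower and 1 was higher at an adjusted p under 0.05, and 12 did not pass. Of all rows tested, 43.6% passed, 22.7% as higher and 21.0% as lower, and many genes thus moved in both directions. The members' median log2 fold change was -0.21, against -0.005 over all rows. Members are abundant, and abundant rows pass more often. Among the 4434 rows with a mean of at least 1000, 59.4% passed in either direction and the median was 0.044. Of the 31 members in that range 24 passed, 23 as lower and 1 as higher, with a median of -0.21. The share of those 4434 rows that passed as lower was not counted. A log2 fold change beyond 0.5 was reached by 6 members, all lower (of all rows, 14.2% passed with such a change, 7.51% as lower and 6.68% as higher). The values of the groups did not overlap for 22 members, lower for 21 of them, against 52.1% of all rows, 25.3% as lower and 26.8% as higher. The 42 genes took 2.96% to 3.07% of all reads in the vehicle libraries and 2.39% to 2.65% in the 4-OHT libraries. Without 4-OHT replicates 2 and 3, which leaves a lone 4-OHT library, the members' median log2 fold change was -0.25. The number of members lower by more than 0.5 was 10 without vehicle replicate 3 or without 4-OHT replicate 2.

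**Figure D1:**
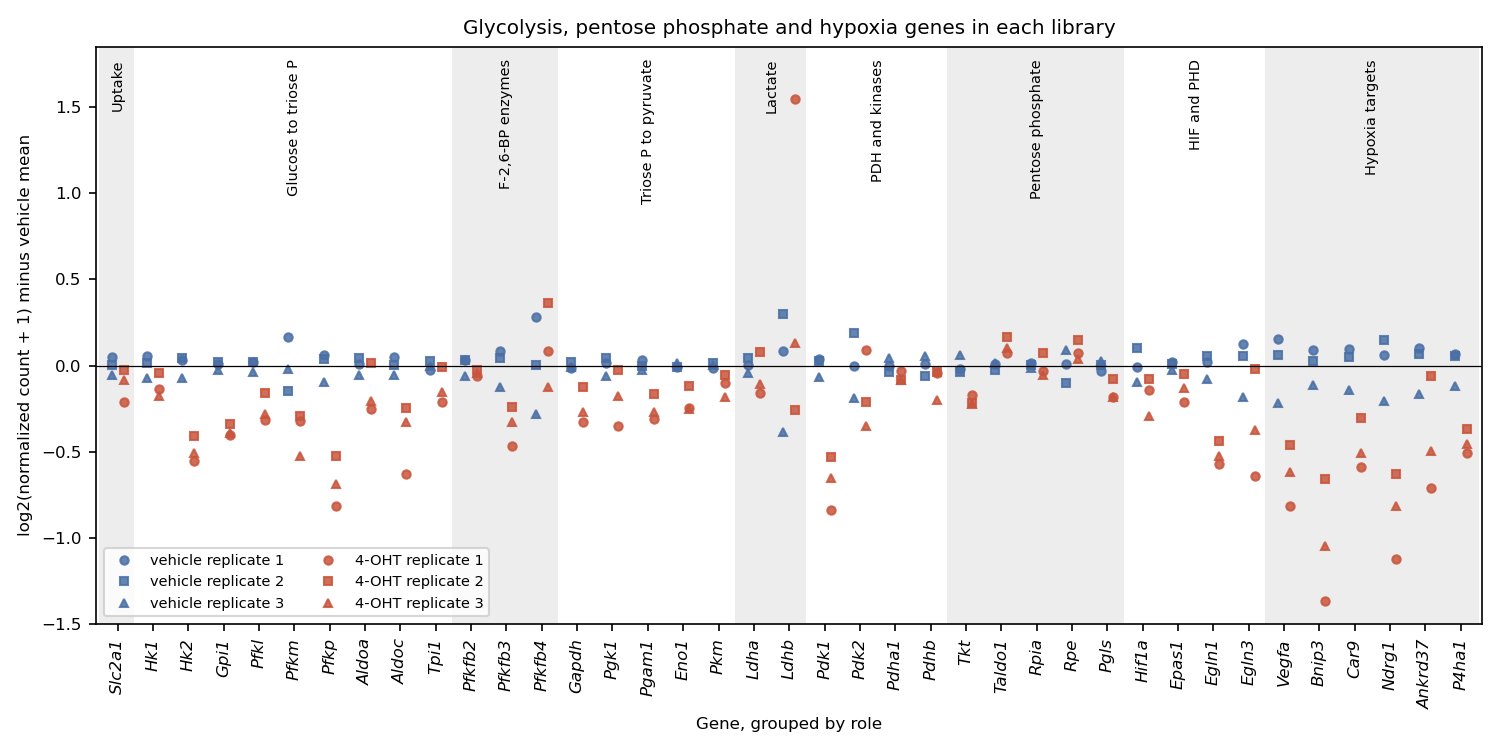
Level of the 39 tested members in each library, as log2(normalized count + 1) minus the mean of the 3 vehicle libraries, with genes on the horizontal axis ordered by role. Blue symbols are vehicle and red symbols 4-OHT libraries, with 1 shape per replicate number. The 4-OHT libraries lie below 0 for most genes, with the widest gaps among the hypoxia targets, and Ldhb is high in 4-OHT replicate 1 alone.

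The 6 hypoxia targets among the members all fell (of all rows, 21.0% passed as lower), with a median log2 fold change of -0.55. Bnip3, a receptor that directs mitochondria to autophagy, had normalized counts of 1018, 975 and 886 with vehicle and 371, 606 and 463 with 4-OHT. The lowest vehicle library was above the highest 4-OHT library, and the log2 fold change was -1.02 (limma adjusted p = 6.2e-07, SE 0.12). Ndrg1, a stress-responsive differentiation gene long used as a hypoxia marker, stood at 14720.4, 15618 and 12242 with vehicle and 6490.1, 9109 and 8033 with 4-OHT. Its groups did not overlap either, with a log2 fold change of -0.86 (limma adjusted p = 2.3e-07, SE 0.09). Vegfa, the angiogenic growth factor, had 8503, 7951 and 6571 with vehicle and 4341, 5546 and 4978 with 4-OHT, a log2 fold change of -0.63 (limma adjusted p = 2.4e-06, SE 0.08). For these genes 4-OHT replicate 1 was the lowest of all libraries and 4-OHT replicate 2 the highest of its group. Car9, the surface carbonic anhydrase that handles acid from glycolysis (-0.47), and P4ha1, a collagen prolyl hydroxylase subunit (-0.44), fell with no overlap. Ankrd37 (-0.42, limma adjusted p = 0.018) fell with overlapping groups and did not pass without vehicle replicate 1 or 2 or without 4-OHT replicate 1 or 3, where it was between -0.39 and -0.28.

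Of the HIF subunits and oxygen sensors, 3 of 4 fell (of all rows, 21.0% passed as lower). Hif1a, the subunit found in most cells, had 1237, 1331 and 1163 with vehicle and 1125, 1178 and 1014 with 4-OHT. These ranges overlapped, and the log2 fold change of -0.17 (limma adjusted p = 0.043, SE 0.066) did not pass without vehicle replicate 1, without vehicle replicate 2 or without 4-OHT replicate 3 (-0.17 to -0.11), nor with DESeq2. For Epas1, which encodes HIF-2 alpha, the log2 fold change was -0.13 with a 95% confidence interval of -0.27 to 0.0055, and it did not pass although the groups did not overlap (limma adjusted p = 0.11). The protein level of HIF, which oxygen controls, was not measured. Egln1, the main oxygen-sensing prolyl hydroxylase and itself raised by HIF, had 2082, 2134 and 1945 with vehicle and 1382, 1514 and 1424 with 4-OHT. Each 4-OHT library lay below each vehicle library, with a log2 fold change of -0.51 (limma adjusted p = 3.1e-07, SE 0.055). Egln3 fell by 0.35 (limma adjusted p = 0.0085), but 4-OHT replicate 2, at 8718, lay within the vehicle range of 7796 to 9657. Without 4-OHT replicate 1 the value was -0.20 and did not pass, nor did it pass with DESeq2 (-0.33).

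The upstream sequences of these genes show where the HIF motif stands in letters. Windows of 250 bases before the annotated starts were taken from RefSeq on GRCm38.p6, since the deposited table has no coordinates and its labels name another build, GRCm39. They were found for 39 of the 42 members (56 windows), and not for Slc2a3, Epas1 and Ndrg1. Shown are the windows of Bnip3, Egln1, Pfkp and Pdk1, which fell beyond 0.5, of Car9, and of Ldha, which did not pass the test. Capitals mark each ACGTG or GCGTG, the 2 spellings of RCGTG, on either strand, so that the reverse strand reads CACGT or CACGC.
Bnip3, chr7:138909507-138909756, minus strand: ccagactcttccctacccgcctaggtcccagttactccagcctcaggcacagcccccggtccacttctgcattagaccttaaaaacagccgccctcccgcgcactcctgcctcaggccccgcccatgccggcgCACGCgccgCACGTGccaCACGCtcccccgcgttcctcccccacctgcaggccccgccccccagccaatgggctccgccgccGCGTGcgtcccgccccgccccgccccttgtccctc
Egln1, chr8:124949255-124949504, minus strand: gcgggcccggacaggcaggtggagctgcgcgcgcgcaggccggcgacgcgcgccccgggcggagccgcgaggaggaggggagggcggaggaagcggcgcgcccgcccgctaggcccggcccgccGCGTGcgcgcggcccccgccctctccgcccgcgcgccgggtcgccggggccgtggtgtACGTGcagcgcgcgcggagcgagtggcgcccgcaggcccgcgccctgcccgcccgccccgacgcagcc
Car9, chr4:43506776-43507025, plus strand: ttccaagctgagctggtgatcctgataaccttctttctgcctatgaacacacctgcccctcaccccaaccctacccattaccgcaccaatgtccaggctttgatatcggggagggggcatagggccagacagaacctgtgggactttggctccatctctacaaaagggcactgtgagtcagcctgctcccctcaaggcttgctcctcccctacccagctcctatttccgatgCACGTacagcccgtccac
Pfkp, chr13:6648772-6649021, minus strand: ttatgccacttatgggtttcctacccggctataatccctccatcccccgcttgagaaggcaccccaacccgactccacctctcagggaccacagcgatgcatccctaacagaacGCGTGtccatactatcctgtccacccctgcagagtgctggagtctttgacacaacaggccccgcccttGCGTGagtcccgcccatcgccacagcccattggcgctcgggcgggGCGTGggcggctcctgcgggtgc
Pdk1, chr2:71872974-71873223, plus strand: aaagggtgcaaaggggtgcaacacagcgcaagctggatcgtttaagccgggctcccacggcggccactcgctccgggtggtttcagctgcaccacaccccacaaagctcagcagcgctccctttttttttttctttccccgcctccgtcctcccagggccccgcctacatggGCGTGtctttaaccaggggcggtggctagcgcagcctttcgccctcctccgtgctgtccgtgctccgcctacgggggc
Ldha, chr7:46845554-46845803, plus strand: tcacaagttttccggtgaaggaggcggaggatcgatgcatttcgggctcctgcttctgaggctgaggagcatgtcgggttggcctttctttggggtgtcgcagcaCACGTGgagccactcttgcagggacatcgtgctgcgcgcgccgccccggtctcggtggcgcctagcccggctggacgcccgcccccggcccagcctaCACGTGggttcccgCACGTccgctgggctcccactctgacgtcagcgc

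The Bnip3 window held 5 matches, among them CACGTG, which counts on both strands and is also the E-box bound by Myc and Usf factors. Egln1 held 2 matches, Car9 held 1 that begins 18 bases before the start, Pfkp held 3, all GCGTG, and Pdk1 held 1. The Ldha window held 5, all ACGTG and 4 of them in 2 E-boxes, although Ldha showed no change that passed the test. Of the windows of Vegfa, that at chr17:46032378-46032627 held none and that at chr17:46025164-46025413 held 2, 1 of each spelling. Pdk1 and Ldha each have a further annotated start, with 0 and 1 match upstream. Over all members, 20 of 39 genes (51.3%) had an ACGTG in a window and 35 of 39 (89.7%) either spelling. Among the 10059 tested genes with a window these shares were 25.2% and 61.6%, and over all 27025 genes 18.5% and 41.5%. A gene with several windows has more chances to match. Counted by window, the shares were 42.86% and 80.36% for members and 21.55% and 55.42% for tested genes. All 5 hypoxia targets with a window held ACGTG in at least 1 window, and none of the 5 pentose phosphate genes did. Vegfa held it only at chr17:46025164-46025413, which on the minus strand lies downstream of the other annotated Vegfa start. The members include genes chosen because they are known HIF targets, and a match of 5 letters is a description and not a binding site.

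Beyond the 42 genes, 20 further hypoxia targets were listed, and 18 could be tested. Of these, 13 fell, none rose and 5 did not pass, so that 19 of 24 tested hypoxia targets were lower in all and 10 were lower by more than 0.5. Over all tested rows, 21.0% passed as lower and 7.51% as lower by more than 0.5. Stc2, a secreted glycoprotein, had the largest fall of them, with means of 4133 ± 60.6 with vehicle and 1468 ± 40.8 with 4-OHT (SD, n = 3) and a log2 fold change of -1.49 (limma adjusted p = 4.2e-14, SE 0.047). Adm, the vasodilator peptide adrenomedullin, had 552, 535 and 413 with vehicle and 126, 217 and 206 with 4-OHT, a log2 fold change of -1.47 (limma adjusted p = 2.5e-07, SE 0.16). Ero1a, the oxidase that drives disulfide formation in the endoplasmic reticulum, had 9021, 8651 and 7214 with vehicle and 2564, 3492 and 3179 with 4-OHT, with a log2 fold change of -1.43 (limma adjusted p = 1.1e-10, SE 0.085). In each of these genes the highest 4-OHT library was below the lowest vehicle library. Plod2, which hydroxylates collagen lysines, fell by 0.95 (limma adjusted p = 4.3e-04). The 5 that did not pass were Gbe1 (-0.28), Bnip3l (-0.03), Bhlhe40 (-0.013), Wsb1 (0.051) and Mxi1 (0.13), with log2 fold changes in brackets. Bnip3l is the paralog of Bnip3, and its 95% confidence interval was -0.16 to 0.10. Stc2, Ddit4, Ero1a and Vegfa are also known to respond to ATF4 or to stress of the endoplasmic reticulum.

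**Figure D2:**
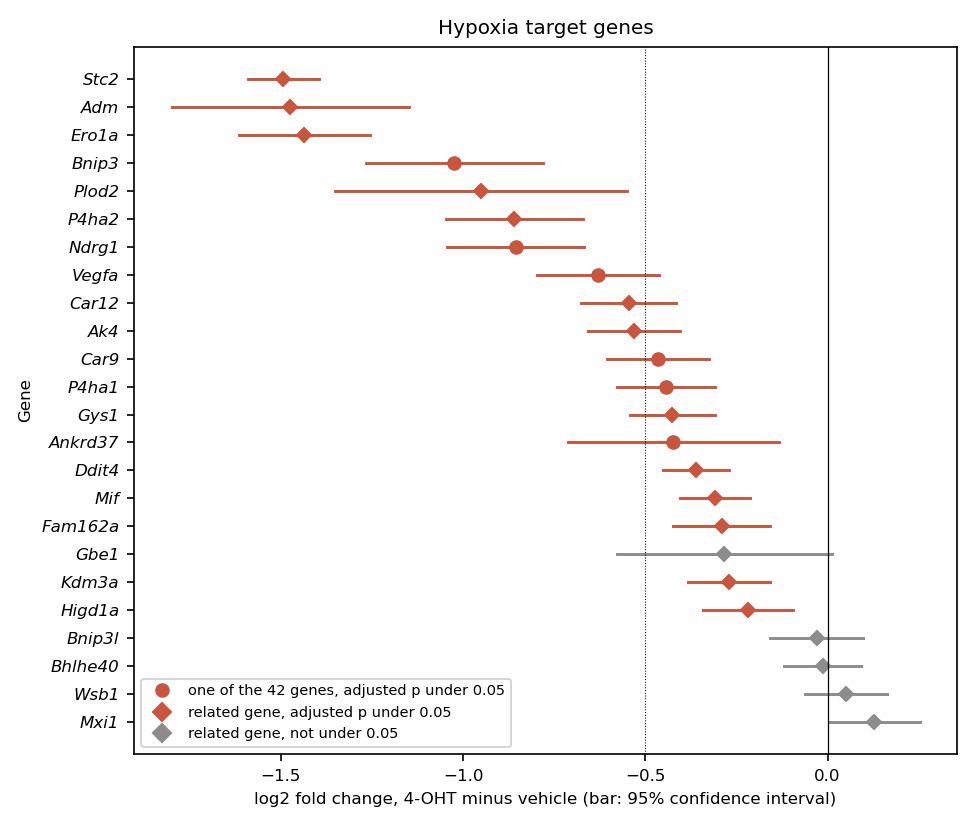
Log2 fold change of the 24 tested hypoxia targets, 4-OHT minus vehicle, on the horizontal axis, with bars for the 95% confidence interval of the limma fit. Circles are the 6 genes of the list and diamonds the 18 related genes, red where the adjusted p was under 0.05, and the dotted line marks -0.5. The circles lie between -1.02 (Bnip3) and -0.42 (Ankrd37), and the 5 grey genes lie between -0.28 and 0.13.

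Among the other genes of the HIF pathway, Hif3a, whose products include inhibitors of HIF and which is raised by it, had 568, 636 and 448 with vehicle and 146, 210.4 and 147 with 4-OHT. Its log2 fold change of -1.72 (limma adjusted p = 6.4e-09, SE 0.14) was the largest of all members and related genes. Egln2 (0.20, limma adjusted p = 0.0038) and Hif1an, the asparagine hydroxylase that also restrains HIF (0.21, 0.0038), rose with no overlap between groups. Arnt, the partner of HIF-alpha, had a log2 fold change of -0.063 (95% confidence interval -0.18 to 0.054) and Vhl, which recognises hydroxylated HIF for degradation, of -0.087 (-0.24 to 0.065), and neither passed.

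Of the glucose transporters, Slc2a1 (GLUT1) had 9981, 9644 and 9265 with vehicle and 8294, 9435 and 9098 with 4-OHT. The groups overlapped, and a log2 fold change of -0.11 (limma adjusted p = 0.082, SE 0.049) did not pass, with a 95% confidence interval of -0.21 to -0.0057. It passed, as a fall, without vehicle replicate 3 (-0.14) or without 4-OHT replicate 2 (-0.15), and with quantile normalization (-0.21). Slc2a3 (GLUT3) had at most 1 read in any library. Slc2a4 (GLUT4), a related gene, was low but higher with 4-OHT, at 9.33, 9.93 and 10.9 with vehicle and 28.9, 22.8 and 36.4 with 4-OHT, a log2 fold change of 1.44 (limma adjusted p = 0.0019, SE 0.34).

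All 9 genes of the steps from glucose to the triose phosphates were lower, with log2 fold changes between -0.68 and -0.12. Of all rows, 21.0% passed as lower. Pfkp, the platelet-type phosphofructokinase, which commits sugar to glycolysis, had 11835, 11660.5 and 10638 with vehicle and 6449, 7904 and 7051 with 4-OHT. The groups lay far apart, with a log2 fold change of -0.68 (limma adjusted p = 2.3e-08, SE 0.06). Hk2, the hypoxia-responsive hexokinase that traps glucose in the cell, had 9513, 9572 and 8844 with vehicle and 6342, 7001 and 6544 with 4-OHT, and its log2 fold change of -0.49 (limma adjusted p = 7.6e-08, SE 0.047) lay just short of 0.5 in size. Gpi1, the isomerase that follows (-0.38), Pfkl (-0.25), Pfkm (-0.38) and Aldoc (-0.40) were lower with no overlap. The falls of Hk1 (-0.12), Aldoa (-0.15) and Tpi1 (-0.12) were small, and their groups overlapped. Each of them did not pass without vehicle replicate 1, vehicle replicate 2, 4-OHT replicate 1 or 4-OHT replicate 3. Tpi1 did not pass without vehicle replicate 3 either, and values in these fits lay between -0.14 and -0.082. Without a filter on low values each of these 3 genes failed as well. Of the 15 alternative analyses, Hk1 lost the threshold in 6, Aldoa in 5 and Tpi1 in 8.

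The Pfkfb enzymes make and remove fructose 2,6-bisphosphate, the strongest activator of phosphofructokinase. Pfkfb3, whose kinase activity prevails, had 2741, 2666 and 2372 with vehicle and 1871, 2189 and 2059 with 4-OHT, a log2 fold change of -0.35 (limma adjusted p = 1.4e-04, SE 0.062) with no overlap. Pfkfb2 (-0.044, 95% confidence interval -0.21 to 0.12) and the much scarcer Pfkfb4 (0.11, -0.23 to 0.45) did not pass. Pfkfb4 turned to -0.034 without vehicle replicate 3 and to -0.020 without 4-OHT replicate 2. Tigar, which removes the same metabolite and is a target of p53, had a log2 fold change of 0.0025 (95% confidence interval -0.17 to 0.18).

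Of the 5 tested genes from triose phosphate to pyruvate, 4 fell (of all rows, 21.0% passed as lower). Pgam1, the mutase, had 6183, 6037 and 5950.2 with vehicle and 4875, 5389 and 5022 with 4-OHT, a log2 fold change of -0.25 (limma adjusted p = 1.7e-04, SE 0.046) with no overlap. Gapdh (-0.24) and Eno1 (-0.21) fell with no overlap, and Pgk1 (-0.19) fell with overlap and did not pass without vehicle replicate 1, vehicle replicate 2, 4-OHT replicate 1 or 4-OHT replicate 3 (-0.19 to -0.10). Gapdh is widely used as a reference gene. It had the highest vehicle mean of all members, with 90126, 92595 and 90646 with vehicle and 72556, 83730.1 and 75699 with 4-OHT. Pkm, the pyruvate kinase, had 86919, 88677 and 87853 with vehicle and 81696, 84528 and 77465 with 4-OHT. Although its groups did not overlap, the log2 fold change of -0.11 (limma adjusted p = 0.058, SE 0.047) did not pass, and it passed, as a fall, in 5 of the 15 alternative analyses, with edgeR, DESeq2 and TMM factors (-0.12 in each), with quantile normalization (-0.15) and without 4-OHT replicate 2 (-0.14). Eno2 had 1 to 9 reads per library and was not tested. Rows of processed copies, to which reads of these genes can be misassigned, held at most 1.69% of the reads of their parent gene (Pgam1-ps2), and how the authors treated reads that map to several places is not given in the sources used here.

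Neither gene of lactate dehydrogenase passed the test. Ldha, whose product turns pyruvate to lactate, had 54864, 56246 and 52962 with vehicle and 48924, 57693 and 50803 with 4-OHT, and 4-OHT replicate 2 was above all vehicle libraries. The log2 fold change was -0.063 (limma adjusted p = 0.37, SE 0.054), with a 95% confidence interval of -0.18 to 0.051, and it passed without 4-OHT replicate 2 (-0.13) and with quantile normalization (-0.24). Ldhb, the heart-type subunit, was close to the detection limit, with 13, 20 and 7 reads with vehicle and 34, 9 and 11 with 4-OHT. Per kilobase of merged exons in GENCODE vM21, the vehicle level was 16523 normalized counts for Ldha and 7.39 for Ldhb, so the A form made up nearly all lactate dehydrogenase transcript. The log2 fold change of Ldhb, 0.47 (limma adjusted p = 0.43, SE 0.45), rested on 4-OHT replicate 1 and was -0.065 without it. The lactate carriers Slc16a1 (MCT1, -0.45, limma adjusted p = 9.0e-08) and Slc16a3 (MCT4, -0.24, 0.018), both related genes, fell. The groups did not overlap for Slc16a1. For Slc16a3, 4-OHT replicate 2, at 7507, lay within the vehicle range of 6842 to 8009.

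At the entry to the mitochondrion, 1 of the 4 tested members fell, against 21.0% of all rows that passed as lower. Pdk1, the hypoxia-responsive kinase that inactivates pyruvate dehydrogenase, had 4383, 4346 and 4079.8 with vehicle and 2387, 2953 and 2717 with 4-OHT. The highest 4-OHT library was far below the lowest vehicle library, with a log2 fold change of -0.67 (limma adjusted p = 3.5e-08, SE 0.061). Pdha1 and Pdhb, the subunits of the first enzyme of the complex, had log2 fold changes of -0.066 (95% confidence interval -0.16 to 0.025) and -0.093 (-0.21 to 0.019) and did not pass. With quantile normalization both passed as lower, at -0.13 and -0.14. Pdk2 (-0.16, -0.43 to 0.11) did not pass either, and Pdk4 had 0 to 10 reads per library and was not tested. Of 7 related genes, Pdk3 fell by 0.36 and the phosphatase genes went apart, Pdp1 at 0.41 and Pdp2 at -0.42 (limma adjusted p = 0.0044 and 4.5e-05). The regulatory subunit Pdpr fell by 0.34, and Pdhx, Dlat and Dld, which build the rest of the complex, lay between -0.035 and 0.098 and did not pass.

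In the pentose phosphate pathway 2 of 5 members fell and 1 rose, with a median log2 fold change of -0.005. This share of 60% was near the 59.4% of rows with a mean of at least 1000 that passed. Each of these 5 genes had such a mean. Tkt, the transketolase that returns pentoses to glycolysis, had 14003, 13853 and 14824 with vehicle and 12623, 12229 and 12159.7 with 4-OHT, and all 4-OHT libraries were below the vehicle libraries, with a log2 fold change of -0.21 (limma adjusted p = 5.8e-04, SE 0.043). Pgls, of the oxidative branch, fell by 0.15 (limma adjusted p = 0.029) and did not pass without vehicle replicate 2 or 3 or without 4-OHT replicate 1 or 3 (-0.15 to -0.13). Taldo1, the transaldolase that works beside Tkt, had 10283, 10054 and 10336 with vehicle and 10770.3, 11464 and 10966 with 4-OHT and was the single member to rise, by 0.11 (limma adjusted p = 0.033, SE 0.042). This rise did not pass without vehicle replicate 1 or 2 or without 4-OHT replicate 2 or 3 (0.088 to 0.12), and with quantile normalization it was 0.015. Rpia (-0.005, 95% confidence interval -0.11 to 0.10) and Rpe (0.087, -0.044 to 0.22), which interconvert the pentose phosphates, did not pass. Of the related genes, the NADPH-forming dehydrogenases gave -0.13 for G6pdx (limma adjusted p = 0.051) and 0.03 for Pgd (0.61). G6pdx passed, as a fall, in 7 of the 15 alternative analyses (-0.18 to -0.13), among them edgeR, TMM factors and quantile normalization, and without vehicle replicate 1 or 4-OHT replicate 1 (-0.17 in each).

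Ratios between paired genes of the list were compared within each library, where size factors cancel. Gene length remains in each ratio and cancels only in the difference between the groups. With 3 libraries against 3 the exact permutation test cannot go below p = 0.1, and 11 pairs were computed together, of which 3 included a gene below the filter and are not described. For Hk2 against Hk1 the log2 ratio was 0.51, 0.55 and 0.52 with vehicle and 0.11, 0.16 and 0.20 with 4-OHT, a difference between the group means of -0.37. For Pfkp against Pfkl it was -0.17, -0.19 and -0.27 with vehicle and -0.71, -0.57 and -0.62 with 4-OHT, a difference of -0.42. In both pairs, and in Aldoc against Aldoa (-0.25), Pdk1 against Pdk2 (-0.52) and Pfkfb3 against Pfkfb4 (-0.45), all 4-OHT libraries were below all vehicle libraries, which gives the smallest p possible, 0.1 (two-sided exact permutation test, 0.22 after adjustment over the 11 pairs). For Pfkfb3 against Pfkfb4 the groups almost met, with vehicle replicate 1 at 4.154 and 4-OHT replicate 3 at 4.151. The ratio of Pdk1 to Pdk2 was lowest in 4-OHT replicate 1, at 3.33 against 3.94 and 3.96 in the other 4-OHT libraries. Pfkm against Pfkl (-0.13, exact permutation p = 0.4), Ldha against Ldhb (-0.54, p = 0.6) and Epas1 against Hif1a (0.038, p = 0.7) overlapped between groups.

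**Figure D3:**
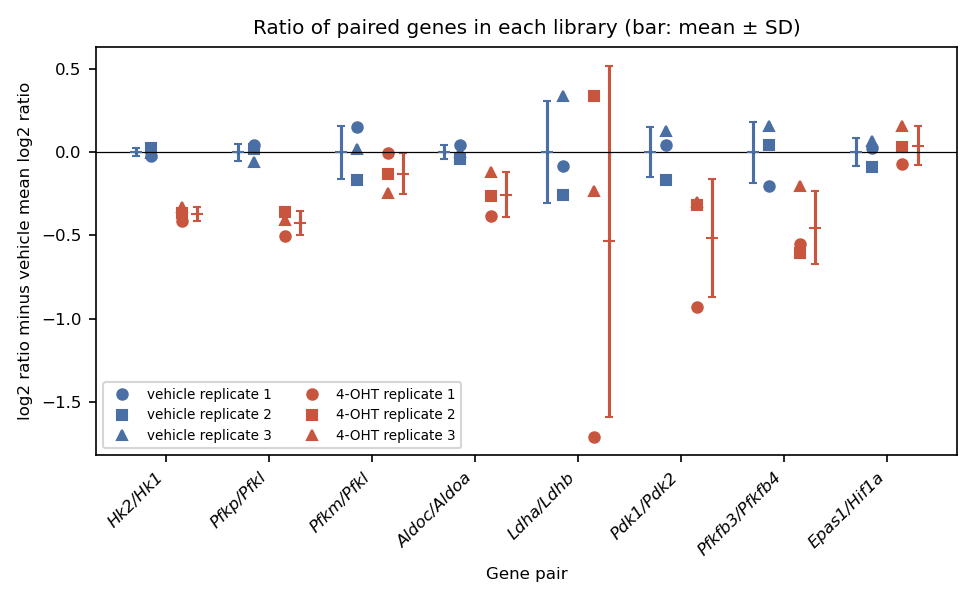
Log2 ratio of the normalized counts (plus 1) of 8 gene pairs in each library, minus the vehicle mean of that pair. Symbols are single libraries, blue for vehicle and red for 4-OHT, and bars give the mean ± SD of 3 libraries. The 4-OHT symbols lie below all vehicle symbols for Hk2/Hk1, Pfkp/Pfkl, Aldoc/Aldoa, Pdk1/Pdk2 and, by a very narrow margin, Pfkfb3/Pfkfb4.

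The level of each gene per kilobase of merged exons gives the forms present in these organoids. With vehicle, Hk2 had 1559.7 normalized counts per kilobase and Hk1 757, and with 4-OHT 1111 and 697. Among the phosphofructokinases Pfkl had 1966, Pfkp 849 and Pfkm 110.2 with vehicle. Aldoa (11635) and Eno1 (13469.6) stood far above Aldoc (409) and Eno2 (0.690). Hif1a (211) and Epas1 (142) were of similar order, and of the prolyl hydroxylases Egln3 (3336) stood above Egln1 (572). These levels depend on the annotated exons, taken here from GENCODE vM21, while the annotation behind the deposited table is not given in the sources used here.

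Other genes around glucose metabolism moved in both directions. Of 41 related genes listed here, which leave out the hypoxia targets and the HIF pathway described above, 35 were tested, of which 12 fell, 7 rose and 16 did not pass. Over all tested rows 43.6% passed, 21.0% as lower and 22.7% as higher, so movement in both directions was not particular to these genes. Pck2, the mitochondrial carboxykinase that makes phosphoenolpyruvate, had 3787, 3742 and 3765 with vehicle and 1350.3, 1703 and 1534 with 4-OHT and fell, with a log2 fold change of -1.31 (limma adjusted p = 8.8e-12, SE 0.063). Pck2 is also a known ATF4 target. Bpgm (0.47), Pgm2 (0.28) and Pklr, the liver-type pyruvate kinase (0.27), rose with no overlap, while Pgm1 (-0.41) fell, also with no overlap.

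**Figure D4:**
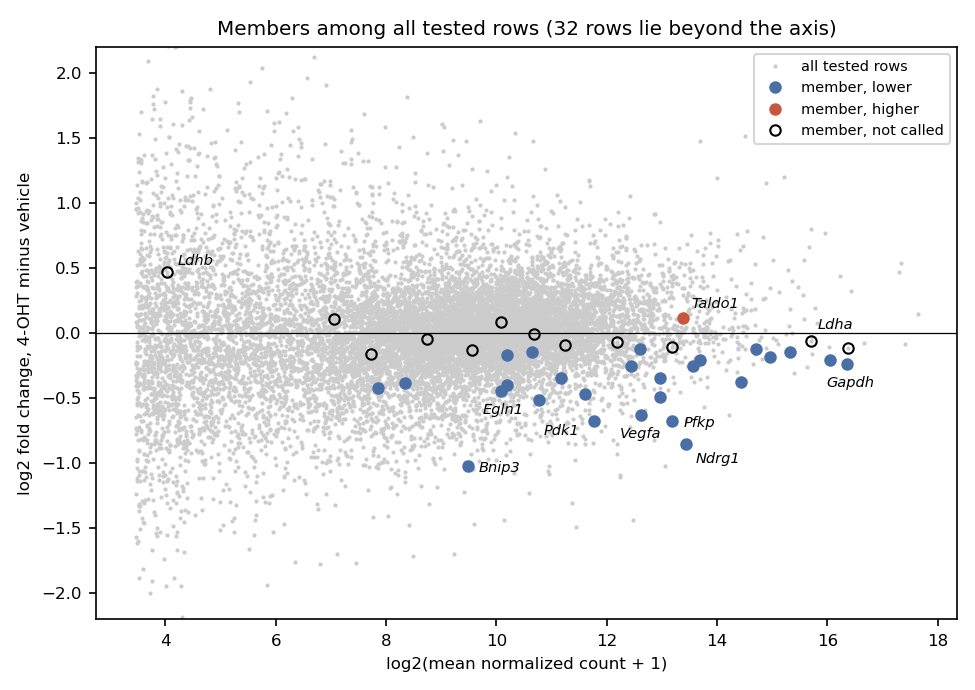
Log2 fold change, 4-OHT minus vehicle, against the log2 mean normalized count of all 13210 tested rows (grey), with the 39 tested members on top. Filled blue circles are the 26 lower members, the red circle is Taldo1, and open circles are the 12 that did not pass. The members spread mostly over the abundant side of the plot and lie mostly below 0, while the grey rows centre near 0.

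The libraries of a group did not rank alike for these genes. In the 4-OHT group, replicate 2 had the highest value of 35 of the 39 tested members and replicate 1 the lowest of 26, while over all rows replicate 2 was highest for 35.7% and replicate 1 lowest for 34.3%. The median member lay at -0.25, -0.12 and -0.27 relative to the vehicle mean on the log2 scale in 4-OHT replicates 1, 2 and 3, and the median hypoxia target at -0.76, -0.41 and -0.56. Among vehicle libraries, replicate 3, which had the fewest reads, was lowest for 28 of 39 members, against 35.7% of all rows. Its median hypoxia target stood at -0.15, above each 4-OHT library.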

How the data were processed

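RNA of 6 cultures of colonic organoids was sequenced, 3 with vehicle and 3 with 4-OHT, and groups were taken from the sample titles. The table deposited by the authors holds a signal, normalized counts, in which gene reads had been scaled by a single factor for each library and not by gene length. The submitters' processing notes name STAR, DESeq2 and the build GRCm39 (mm39), and the counting tool and annotation are not given in the sources used here. All values (100%) were whole multiples of 1 step per library within 0.1 reads, so whole reads were recovered. Of 25067 rows, 1754 were 0 in every library.

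Groups were tested by limma-trend (version 3.58.1, R 4.3.3) on log2(normalized count + 1) over the 13210 rows with a mean of at least 10, with Benjamini-Hochberg adjustment over all of them and a threshold of 0.05. Fold changes are on this scale, and errors are SD or the SE of the fit. Alternatives were pseudocounts of 0.1 and 10, no filter, a minimum mean of 50, TMM factors, quantile normalization, a replicate block, each library left out, and edgeR 4.0.16 (quasi-likelihood test) and DESeq2 1.42.0 on the recovered reads, on which edgeR called 5780 and DESeq2 5208 genes. A fit without 4-OHT replicates 2 and 3 was added after seeing the data.

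The members, the related genes, the cell markers and the tests were chosen with earlier results of these data known. Full values are given for members beyond 0.5 without overlap, for the member of each role with the largest change, and for Slc2a1, Hk2, Pkm, Ldha, Hif1a and Vegfa. Related genes named by rule are the 8 with the largest change past the threshold, and Arnt, Vhl, G6pdx and Pgd, and others are named where their group is described. 1 gene that this rule names is not reported here. In the marker lists, 4 of 6 goblet genes rose and 1 fell, the fibroblast, endothelial, immune and smooth muscle lists had at most 11.3 CPM in a library, and the plasma cell list had 0 reads with vehicle and 1, 204 and 62 with 4-OHT. Libraries of a group differed by 3.49 to 6.44 times counting variance (chi-square per degree of freedom), so none was a copy of another. Promoter windows came from RefSeq (GRCm38.p6).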

Additional observations from a re-analysis of the deposited data

How the results depend on the processing

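Of the 27 members that passed, 18, all lower, kept their direction and stayed past the threshold in each of the 15 alternative analyses. The other 9 lost the threshold in at least 1 of them. Leaving out each library in turn gave 19 to 29 lower members, 0 to 1 higher, 5 to 10 lower by more than 0.5 and 4939 to 5630 of all genes. The higher member was lost (0 left) without a filter, with quantile normalization and with the replicate block. Quantile normalization moved the median of the members from -0.21 to -0.33 and gave 31 lower members, while the median of all rows stayed at -0.005; the cause was not tested. Without 4-OHT replicates 2 and 3, where the lone 4-OHT library is assumed to vary like the vehicle libraries, 3569 genes passed, with 12 members lower and 1 higher by more than 0.5 (Ldhb, 1.55). Directions turned for Pfkfb2 (0.0029) and Pgd (-0.072) with quantile normalization, Pfkfb4 (-0.034 without vehicle replicate 3, -0.020 without 4-OHT replicate 2, and up to 0.25 without another library), Ldhb (-0.065 without 4-OHT replicate 1, and up to 0.84), Rpia (0.0020 without vehicle replicate 1, 0.0080 without 4-OHT replicate 1, 0.019 without 4-OHT replicate 3, and as low as -0.0425) and Pdk2 (0.089 without 4-OHT replicates 2 and 3), none of which passed in the comparison as reported. Same-numbered libraries did not deviate together (correlations of -0.0074, 0.030 and -0.020), and libraries with different numbers gave values of similar size (-0.048 to 0.047). With 3 libraries per group this cannot exclude a pairing by number, which the labels do not state. With the replicate block 24 members were lower and 5637 genes passed. With a minimum mean of 50, Ldhb and Slc2a4 were among the genes that gave no value. Depth limits Slc2a3, Eno2, Pdk4 and Ldhb most.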
